A study of Mus musculus with 19 samples.

Results

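The 9 enzymes that work beside the core spiral of fatty acid beta-oxidation were followed in crypts of the mouse small intestine, the epithelial pits that hold the stem cells and their dividing progeny. They were the enoyl-CoA isomerases Eci1 and Eci2, the dienoyl-CoA reductases Decr1 and Decr2, the enoyl-CoA hydratase Echs1, both subunits of the electron transfer flavoprotein (Etfa and Etfb), its dehydrogenase Etfdh, and the branched-chain acyl-CoA dehydrogenase Acadsb. The genes were chosen by function and matched by symbol among the 55487 genes listed for each mouse, and each of the 9 passed the filter on low counts, as did 17875 genes in all. The study used adult C57BL/6 mice of both sexes that were wild type for neurotensin (NT+/+) or lacked it in all tissues (NT-/-). The paper describes both genotypes as carrying Lgr5-EGFP, a fluorescent reporter of the stem cell gene Lgr5. NT is a gut hormone released after a meal. There were 5 NT+/+ mice and 4 NT-/- mice fed standard chow ad libitum, and 5 NT+/+ mice and 5 NT-/- mice fasted for 48 hours with water, with 1 RNA-seq library per mouse.

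Beta-oxidation in mitochondria shortens a fatty acid in repeated rounds of dehydrogenation, hydration, a further dehydrogenation, and cleavage. Fatty acids with natural double bonds cannot pass through these rounds until an isomerase or a reductase has moved or removed the bond, and this is the task of Eci1, Eci2, Decr1, and Decr2. The electrons that the acyl-CoA dehydrogenases take up leave through the electron transfer flavoprotein and Etfdh to ubiquinone. In the intestine, beta-oxidation is known as a fuel source of crypt cells and as part of their response to fasting.

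The libraries were checked before the genes were compared. Total counts per mouse ranged from 9059457 to 35068711 (median, 18541819), and the share of counts from mitochondrial genes ranged from 3.27% to 5.9%. Nts, the targeted gene, lay between 4.98 and 8.59 CPM (counts scaled to a common library size) in NT+/+ mice and between 0.144 and 0.793 CPM in NT-/- mice. In the fasted NT+/+ group, replicate 5 carried a title and a genotype label that disagreed. Its Nts level was 5.43 CPM, within the range of NT+/+ mice and above the highest level in NT-/- mice. It was kept in the group of its title. The 7 markers of intestinal epithelium fixed for this check (such as Epcam and Vil1) were all detected, with summed levels of 4989.6 to 6599.8 CPM. The summed level of 9 markers of stroma and muscle stayed between 2.54 and 11.7 CPM, and that of 8 immune markers between 44.9 and 147 CPM.

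Fasting raised most of these genes in both genotypes, and loss of NT moved none of them past the test. In NT+/+ mice, 6 of the 9 were higher after fasting by edgeR's quasi-likelihood test (adjusted p under 0.05), where 11.2% of all tested genes were called higher. The same 6 genes were higher after fasting in NT-/- mice, where the share for all genes was 12.5%. They were Eci2, Decr1, Decr2, Etfa, Etfb, and Etfdh. None was lower. The median log2 fold change of the 9 genes was 0.40 in NT+/+ mice and 0.41 in NT-/- mice, and the medians over all tested genes were -0.01 and -0.02. In the average of both fasting effects, 7 of the 9 were called, with Eci1 added (all genes called higher, 19.2%). Every fasted NT+/+ mouse lay above every fed NT+/+ mouse for the same 6 genes (7.63% of all tested genes), and in NT-/- mice this held for Eci2, Etfa, Etfb, and Etfdh (10.5% of all tested genes). With the mouse of disagreeing labels left out, or moved to the NT-/- group, 6 of the 9 genes were called higher after fasting in each genotype.

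**Figure D1:**
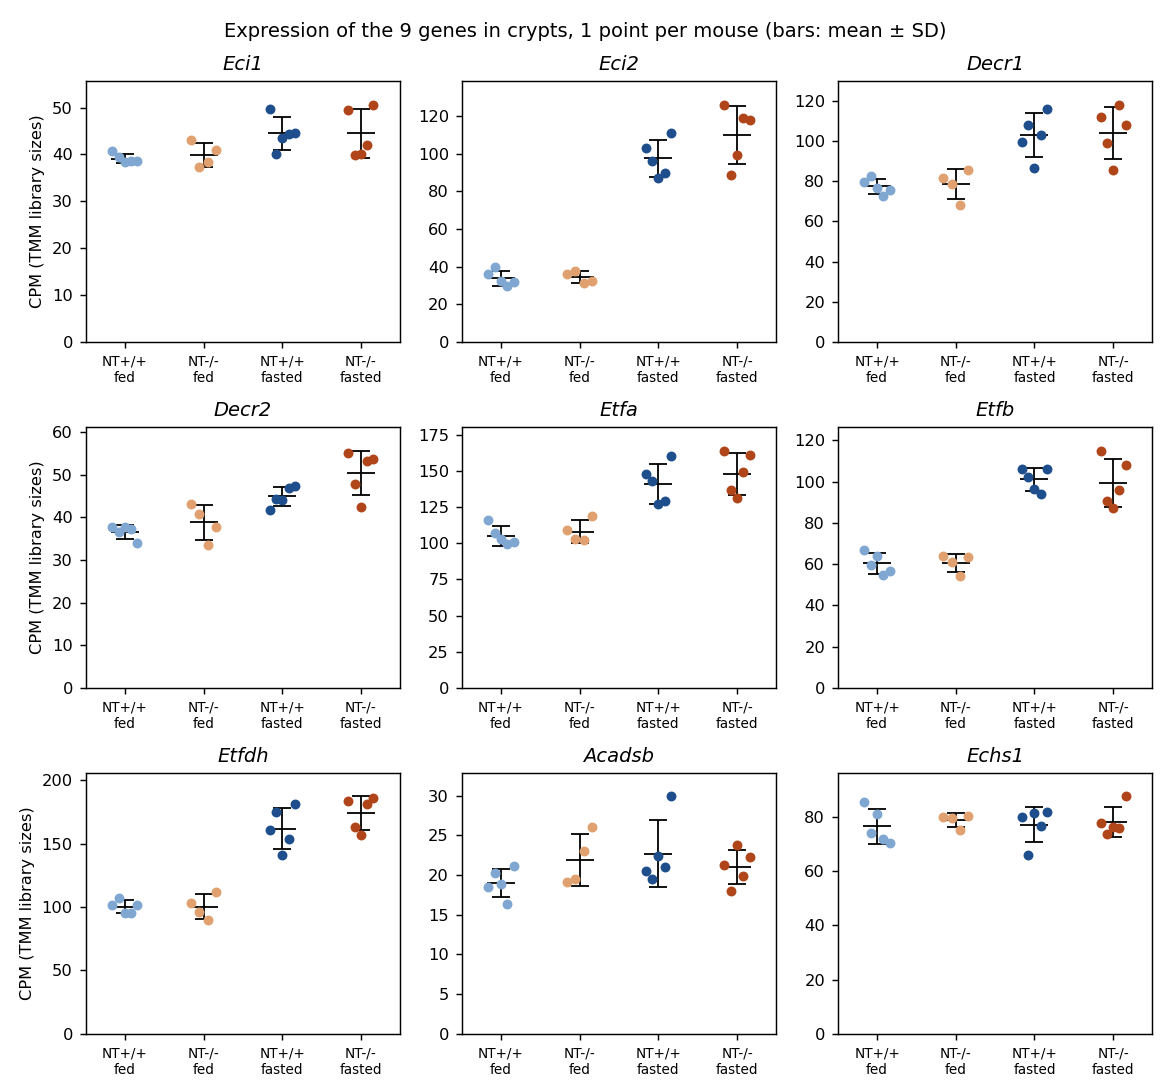
CPM, counts scaled to a common library size (y axis, from 0), of each of the 9 genes in each mouse, by genotype and diet, with bars for the mean ± SD of each group. Eci2 sits between 29.7 and 39.7 CPM in all fed mice and between 87.3 and 126 CPM in all fasted mice, and the groups of Echs1 overlap throughout.

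Markers of villus enterocytes, the mature absorptive cells that sit above the crypt, moved with fasting. Of 12 such markers, 10 rose in NT+/+ mice and 12 in NT-/- mice, and none was at 0 in any group. Their summed level was 6236 to 12704 CPM in fed NT+/+ mice and 12717 to 24235 CPM in fasted NT+/+ mice. In NT-/- mice the summed level was 9336 to 14019 CPM when fed and 21292 to 29749.7 CPM when fasted. Of 5 stem cell markers, Olfm4 fell in both genotypes and Smoc2 in NT-/- mice. Of 6 goblet cell markers, Zg16 rose and Agr2 and Clca1 fell in both genotypes, and Muc2 fell in NT-/- mice. Of 6 Paneth cell markers, Defa17 fell in NT-/- mice, and no immune or stromal marker was called in either. For comparison, 11.2% of all tested genes were called higher and 10.4% lower in NT+/+ mice. In NT-/- mice these shares were 12.5% and 12.6%. The part of the marker shifts in the results on the 9 genes was not tested. Between fasted genotypes none of the 12 enterocyte markers was called by edgeR (median log2 difference, 0.43), and DESeq2 called 1. In bulk crypts fewer cells of a type and less RNA per cell cannot be told apart. Over the 19 mice, the mean standardised level of the 9 genes and that of the enterocyte markers had a Pearson r of 0.67, across fed and fasted groups that stand apart. With each group's mean taken off, r was -0.37. Both values are descriptions.

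Eci2, the isomerase of peroxisomes and mitochondria, had by far the widest gap between fed and fasted mice. In fed NT+/+ mice its levels were 36.3, 39.7, 32.3, 29.7, and 32.0 CPM, and in fasted NT+/+ mice they were 103, 96.3, 87.3, 89.9, and 111 CPM. Fed NT-/- mice had 36.2, 37.9, 31.3, and 32.4 CPM, and fasted NT-/- mice had 126, 88.8, 99.2, 119, and 118 CPM. No fasted mouse of either genotype overlapped with a fed one. The log2 fold change was 1.52 (standard error [SE], 0.10; adjusted p = 7.9e-09) in NT+/+ mice, or 2.86-fold, and 1.68 (SE, 0.11; adjusted p = 5.95e-09) in NT-/- mice, or 3.2-fold. Eci2 lies at chr13:34977748-35027096 on the minus strand (GRCm38). An antisense gene, Gm16984, shares 189 of its 5540 exon bases, with a median count of 19.72 against 1203.13 for Eci2, and Eci3 is a close relative, so some reads could belong to either.

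The stretch upstream of the RefSeq start of Eci2 is shown because the gene moved the most. It is the exon-free part of the 250 bases before that start, chr13:34994282-34994394 on the minus strand (GRCm38.p6), and it lies within the span that GENCODE gives the gene. Capitals mark the CCAAT box, a promoter element bound by general activators of transcription, which begins 220 bases before the start.
Eci2: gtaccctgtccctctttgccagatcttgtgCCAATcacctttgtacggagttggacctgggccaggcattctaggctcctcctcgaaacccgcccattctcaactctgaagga
Motif searches covered 3 sets of letters on both strands of the 250 bases before each RefSeq start: CCAAT, the nuclear receptor site AGGTCA, and AGGTCANAGGTCA, the direct repeat bound by the fasting-responsive receptor PPAR alpha with its partner, which contains that site. Of 32851 promoter windows, 33.8% held CCAAT, 14.0% held AGGTCA, and 0.0335% held the repeat. Windows were given for 8 of the 9 genes, all except Decr1. CCAAT occurred in those of Eci2, Etfa, Etfb, and Etfdh (for Etfdh within an annotated exon), AGGTCA in that of Echs1, and the repeat in none of the 8. A match is a description of these letters and no evidence of binding. The exact repeat is so rare among all windows (0.0335%) that its absence from these 8 says nothing about binding either.

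Eci1, the mitochondrial isomerase, differed less between the diets. It ranged from 38.4 to 40.7 CPM in fed and from 40.2 to 49.8 CPM in fasted NT+/+ mice, and from 37.3 to 43.0 CPM in fed and from 39.9 to 50.6 CPM in fasted NT-/- mice. The groups overlapped in both genotypes. Fasting changed it by a log2 fold of 0.18 (SE, 0.08; adjusted p = 0.0873) in NT+/+ mice and 0.16 (SE, 0.08; adjusted p = 0.159) in NT-/- mice, so neither comparison passed the test on its own. The averaged fasting effect did pass, at 0.17 (SE, 0.05; adjusted p = 0.0174). Blocking on the replicate numbers in the sample titles let the NT+/+ comparison pass as well (0.18; adjusted p = 0.031), and blocking on those in the names of the files let both pass (0.18, adjusted p = 0.0227, and 0.17, adjusted p = 0.0419). Eci1 lies at chr17:24426641-24439348 on the plus strand. The intervals of the Eci1 and Eci2 changes in NT+/+ mice, 0.03 to 0.34 and 1.30 to 1.73, did not overlap.

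In TPM, a unit that divides by transcript length and so allows genes to be compared, the order of the isomerases turned over. Within fed mice the ratio of Eci2 to Eci1 was 0.722 ± 0.0751 (SD, n = 5) in NT+/+ and 0.681 ± 0.0586 (SD, n = 4) in NT-/- mice. Within fasted mice it was 1.73 ± 0.217 (SD, n = 5) and 2.0 ± 0.241 (SD, n = 5). The highest fed ratio was 0.816 and the lowest fasted ratio was 1.46.

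**Figure D2:**
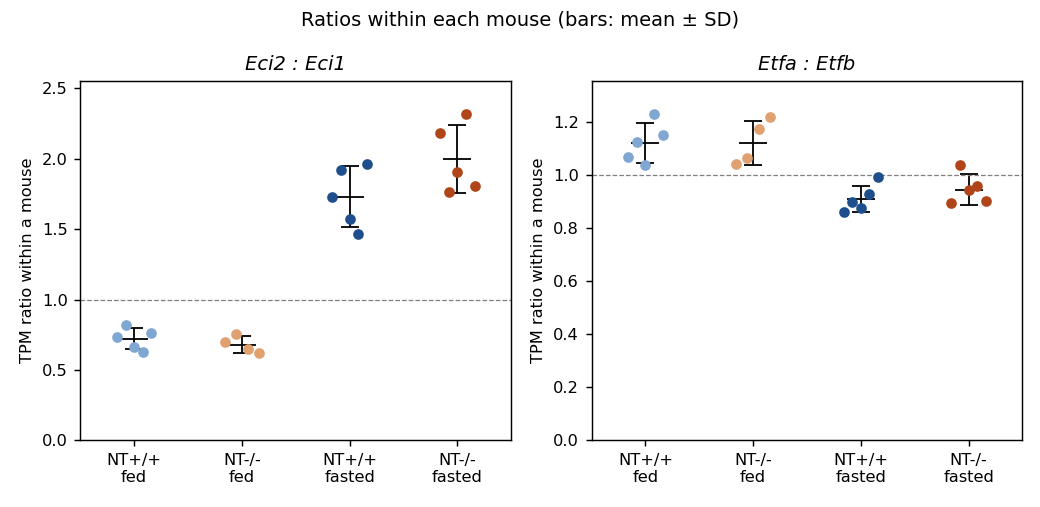
Ratio of TPM values within each mouse (y axis, from 0) for Eci2 to Eci1 and for Etfa to Etfb, by genotype and diet, with bars for the mean ± SD and a dashed line at equal levels. The Eci2 to Eci1 ratio is below the line in every fed mouse and above it in every fasted mouse.

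The reductases rose by smaller amounts. Decr1, the mitochondrial dienoyl-CoA reductase, ranged from 72.6 to 82.6 CPM in fed and from 86.6 to 116 CPM in fasted NT+/+ mice, with no overlap. Its range was 68.1 to 85.5 CPM in fed and 85.4 to 118 CPM in fasted NT-/- mice, where a single fasted mouse lay just under the highest fed one. The log2 fold change was 0.40 (SE, 0.09; adjusted p = 0.00291) in NT+/+ mice and 0.41 (SE, 0.09; adjusted p = 0.00322) in NT-/- mice. Decr2, its peroxisomal counterpart, ranged from 33.9 to 37.7 CPM in fed and from 41.8 to 47.4 CPM in fasted NT+/+ mice, again apart. Among NT-/- mice it ranged from 33.6 to 43.0 CPM when fed and from 42.4 to 55.0 CPM when fasted, and the ranges just touched. The log2 fold change of Decr2 was 0.29 (SE, 0.08; adjusted p = 0.00973) in NT+/+ mice and 0.38 (SE, 0.08; adjusted p = 0.0022) in NT-/- mice. Within a mouse, the TPM ratio of Decr1 to Decr2 was 1.57 ± 0.165 (SD, n = 5) in fed and 1.73 ± 0.0916 (SD, n = 5) in fasted NT+/+ mice, and 1.55 ± 0.167 (SD, n = 4) and 1.56 ± 0.0858 (SD, n = 5) in NT-/- mice, with ranges that overlapped in both genotypes. Decr1 lies at chr4:15917240-15945507 and Decr2 at chr17:26081208-26090337, both on the minus strand.

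Echs1, the short-chain hydratase, which also serves valine and isoleucine breakdown, showed no change that could be detected. It ranged from 70.5 to 85.5 CPM in fed and from 66.0 to 82.0 CPM in fasted NT+/+ mice, and from 75.3 to 80.6 CPM in fed and from 73.8 to 87.7 CPM in fasted NT-/- mice. The groups lay on top of each other. The fitted log2 change was 0.01 (95% interval, -0.14 to 0.16; adjusted p = 0.918) in NT+/+ mice and -0.01 (95% interval, -0.17 to 0.15; adjusted p = 0.936) in NT-/- mice. Both intervals lie below the 0.40 and 0.41 estimated for Decr1, with counts of 650 to 2719 per mouse behind the Echs1 values. Paox, on the opposite strand, shares 142 of 8286 exon bases with Echs1 and had a median count of 212.82 against 1457.73. Echs1 lies at chr7:140105710-140116476 on the minus strand. Its exon-free upstream stretch, chr7:140116477-140116671 on the minus strand (GRCm38.p6), is shown as that of a gene that did not pass the test. It ends 56 bases before the RefSeq start, and capitals mark AGGTCA, which begins 83 bases before that start.
Echs1: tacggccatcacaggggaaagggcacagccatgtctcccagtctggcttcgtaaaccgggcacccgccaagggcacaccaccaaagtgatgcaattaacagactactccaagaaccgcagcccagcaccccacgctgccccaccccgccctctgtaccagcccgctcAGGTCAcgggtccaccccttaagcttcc

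The electron transfer genes rose together. Etfb, the smaller subunit of the flavoprotein, had 66.6, 59.4, 63.9, 54.9, and 56.7 CPM in fed NT+/+ mice and 106, 102, 96.2, 94.2, and 106 CPM in fasted NT+/+ mice. In NT-/- mice it had 63.7, 60.8, 54.4, and 63.6 CPM when fed and 115, 90.8, 87.1, 95.9, and 108 CPM when fasted. All fasted mice were above all fed mice. The log2 fold change was 0.74 (SE, 0.08; adjusted p = 2.84e-06) in NT+/+ mice, or 1.67-fold, and 0.71 (SE, 0.09; adjusted p = 7.45e-06) in NT-/- mice, or 1.64-fold. Etfb lies at chr7:43444083-43457800 on the plus strand. Gm45233 on the same strand shares 617 of its 1164 exon bases, with a median count of 2.71 against 1388.26 for Etfb.

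Etfa, the larger subunit, had 116, 107, 103, 99.2, and 101 CPM in fed and 148, 143, 127, 129, and 160 CPM in fasted NT+/+ mice. Among NT-/- mice it had 109, 103, 102, and 119 CPM when fed and 164, 137, 131, 149, and 161 CPM when fasted. The groups did not overlap in either genotype. In log2 terms the change was 0.43 (SE, 0.08; adjusted p = 0.000743) in NT+/+ mice, or 1.34-fold, and 0.45 (SE, 0.08; adjusted p = 0.000642) in NT-/- mice, or 1.37-fold. The subunits pair in equal numbers in the protein. The TPM ratio of Etfa to Etfb within a mouse was 1.12 ± 0.0742 (SD, n = 5) in fed and 0.909 ± 0.0498 (SD, n = 5) in fasted NT+/+ mice. It was 1.12 ± 0.0842 (SD, n = 4) in fed and 0.944 ± 0.0574 (SD, n = 5) in fasted NT-/- mice. The lowest fed ratio was 1.04 in each genotype, and the highest fasted ratios were 0.987 and 1.03. Etfa lies at chr9:55454508-55512243 on the minus strand.

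Upstream stretches of the subunit genes are shown because both genes rose and their products form 1 complex. Each is the whole 250 bases before the RefSeq start, chr9:55512244-55512493 on the minus strand for Etfa and chr7:43443822-43444071 on the plus strand for Etfb (GRCm38.p6). Capitals mark CCAAT or its reverse complement. Etfa has a reverse match that begins 28 bases and a forward match that begins 11 bases before the start, and Etfb has reverse matches that begin 59 and 29 bases before it.
Etfa: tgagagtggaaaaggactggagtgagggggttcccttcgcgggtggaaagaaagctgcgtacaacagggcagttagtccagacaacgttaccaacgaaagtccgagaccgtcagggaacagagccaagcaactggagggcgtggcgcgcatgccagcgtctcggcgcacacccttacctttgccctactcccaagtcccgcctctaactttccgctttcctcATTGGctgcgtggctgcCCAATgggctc
Etfb: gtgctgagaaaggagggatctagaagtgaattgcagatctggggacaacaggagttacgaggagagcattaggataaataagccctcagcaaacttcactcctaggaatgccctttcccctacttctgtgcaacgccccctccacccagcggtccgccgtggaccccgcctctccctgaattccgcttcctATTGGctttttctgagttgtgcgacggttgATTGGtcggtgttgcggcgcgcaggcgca

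Etfdh, the membrane enzyme that passes electrons from the flavoprotein to ubiquinone, had 102, 107, 95.6, 95.5, and 102 CPM in fed and 161, 175, 141, 154, and 181 CPM in fasted NT+/+ mice. In NT-/- mice it had 103, 96.5, 89.6, and 112 CPM when fed and 184, 163, 157, 181, and 186 CPM when fasted. Every fasted mouse stood above every fed mouse. The log2 fold change was 0.69 (SE, 0.08; adjusted p = 4.54e-06) in NT+/+ mice, or 1.62-fold, and 0.80 (SE, 0.08; adjusted p = 2e-06) in NT-/- mice, or 1.74-fold. The TPM ratio of Etfb to Etfdh within a mouse was 1.73 ± 0.151 (SD, n = 5) in fed and 1.78 ± 0.14 (SD, n = 5) in fasted NT+/+ mice, and 1.74 ± 0.0847 (SD, n = 4) in fed and 1.65 ± 0.0957 (SD, n = 5) in fasted NT-/- mice. The fed and fasted ranges overlapped in both genotypes. The TPM ratio of Etfa to Etfdh was 1.93 ± 0.0954 (SD, n = 5) in fed and 1.61 ± 0.0766 (SD, n = 5) in fasted NT+/+ mice. In NT-/- mice this ratio was 1.95 ± 0.0857 (SD, n = 4) when fed and 1.55 ± 0.0709 (SD, n = 5) when fasted. Its fed and fasted ranges did not overlap in either genotype. Etfdh lies at chr3:79603788-79629500 on the minus strand, and 278 of its 7505 exon bases are shared with 4930579G24Rik on the opposite strand, which had a median count of 60.41 against 2407.32.

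Acadsb, which dehydrogenates short branched-chain acyl-CoAs in isoleucine breakdown and hands its electrons to the flavoprotein, had the lowest mean level of the 9 genes in each group, although its TPM range overlapped that of Decr2 in fed mice. In fed NT+/+ mice it had 18.5, 20.2, 18.8, 16.4, and 21.1 CPM, and in fasted NT+/+ mice 20.5, 19.5, 22.4, 21.0, and 29.9 CPM. Among NT-/- mice it had 19.1, 19.5, 23.0, and 26.0 CPM when fed and 21.2, 18.0, 23.8, 19.9, and 22.2 CPM when fasted. The groups overlapped in both genotypes, and the value of 29.9 CPM came from the mouse whose labels disagreed. edgeR put the log2 change at 0.25 (SE, 0.12; adjusted p = 0.136) in NT+/+ mice and -0.05 (SE, 0.13; adjusted p = 0.816) in NT-/- mice. Without the mouse of disagreeing labels the NT+/+ value was 0.13 (adjusted p = 0.394). Blocking on the numbers in the names of the files gave 0.24 (adjusted p = 0.0495). Acadsb lies at chr7:131410601-131448944 on the plus strand. Its span overlaps that of Fgfr2 on the opposite strand, with which it shares 0 exon bases. Fgfr2 had a median count of 607.41 against 397.0 for Acadsb.

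**Figure D3:**
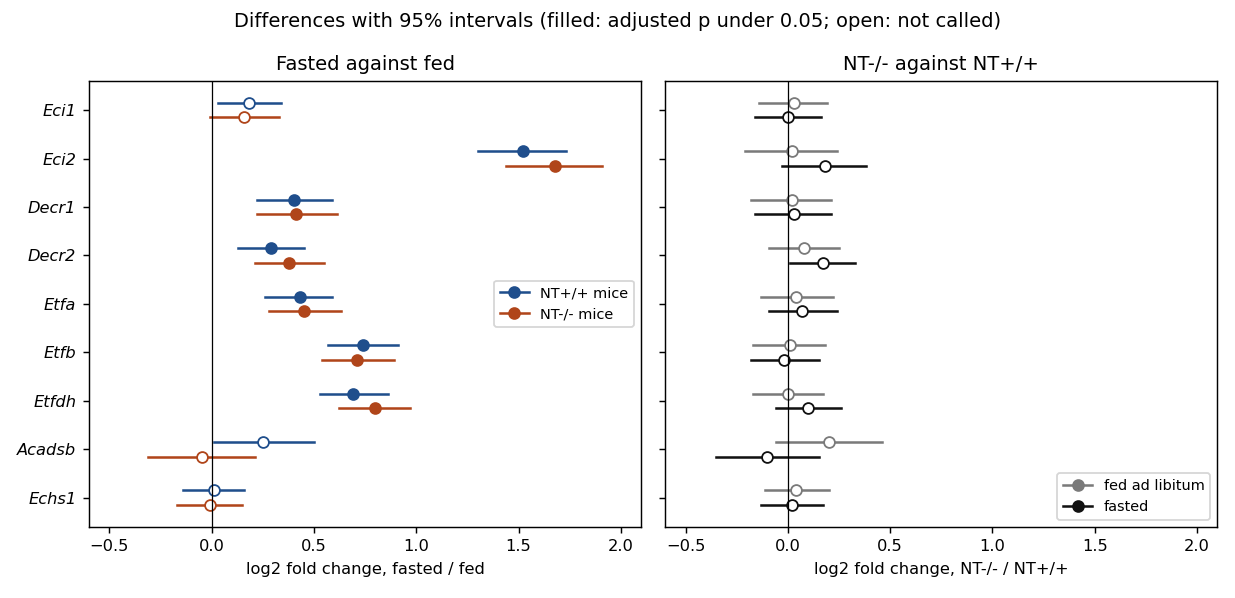
Log2 fold changes (x axis) of the 9 genes with 95% intervals, for fasted against fed mice in each genotype and for NT-/- against NT+/+ mice in each diet, with filled points for adjusted p under 0.05. The 6 called genes have filled points for fasting in both genotypes, led by Eci2 at 1.52 and 1.68, and no genotype difference is filled.

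Per transcript length, the flavoprotein subunits had the highest mean levels of the 9 in every group. In fed NT+/+ mice Etfa stood at 97.9 ± 7.91 TPM (SD, n = 5) and Etfb at 87.4 ± 4.56 TPM, and their ranges overlapped. A gap followed, below which Echs1 (54.1 TPM), Etfdh (50.8 TPM), Eci1 (48.2 TPM), Eci2 (34.9 TPM), and Decr1 (34.2 TPM) formed a run in which each range overlapped the next. Decr2 (21.9 TPM) and Acadsb (16.6 TPM) could not be ordered either. In fasted NT+/+ mice the order was Etfb at 140 ± 11.2 TPM (SD, n = 5), Etfa at 127 ± 10.4 TPM, Eci2 at 93.3 ± 9.83 TPM, Etfdh at 79.2 ± 10.2 TPM, and then Eci1, Echs1, Decr1, Decr2, and Acadsb. By its mean, Eci2 thus went from the sixth to the third place. Its range overlapped that of Eci1 when fed and that of Etfdh when fasted. The NT-/- mice had the same leading pair when fed (Etfa, 97.7 TPM; Etfb, 86.8 TPM) and the same leading 4 when fasted (Etfb, 142 TPM; Etfa, 134 TPM; Eci2, 105 TPM; Etfdh, 86.1 TPM). Neighbours in the order of these 4 had ranges that overlapped.

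**Figure D4:**
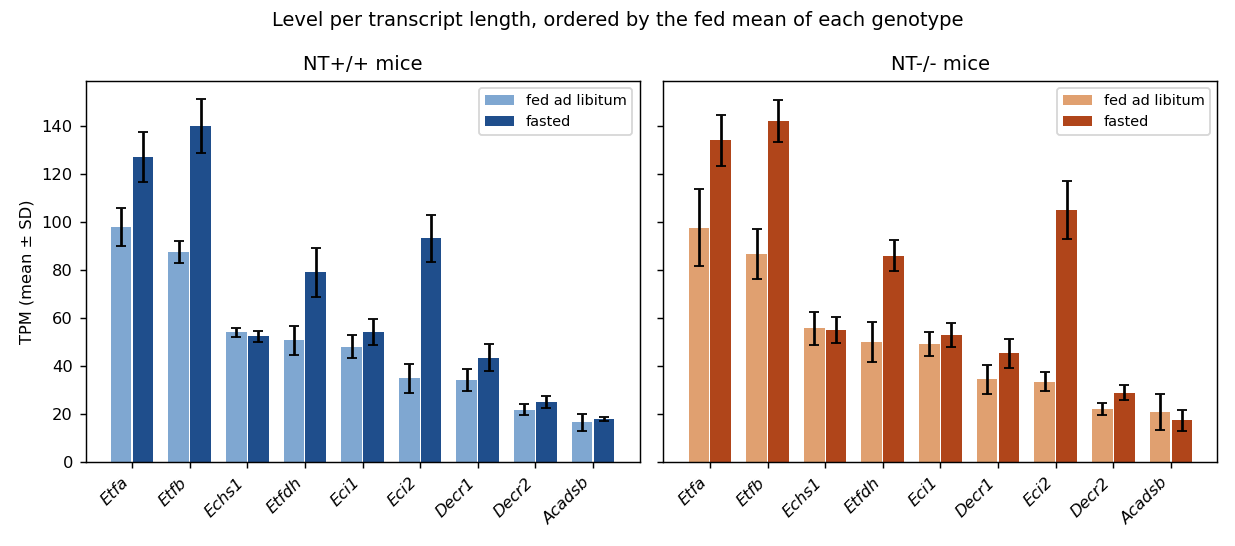
Mean TPM (y axis, from 0) of each gene with SD bars in fed and fasted mice of each genotype, with genes ordered by the fed mean. Eci2 rises from 34.9 to 93.3 TPM in NT+/+ mice and from 33.5 to 105 TPM in NT-/- mice, and Echs1 stays between 52.4 and 55.8 TPM in all 4 groups.

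The genotype comparison asked whether NT itself was needed for the level of these genes in either diet. None of the 9 was called by edgeR in fed mice, in fasted mice, or in the average over diets, and DESeq2 called none either. At an unadjusted p under 0.05 by edgeR the numbers were 0 of 9 in fed mice, 1 of 9 in fasted mice, and 1 of 9 in the average. This gene was Decr2 each time. At the same unadjusted threshold stood 299 of all 17875 tested genes in fed mice, 1634 in fasted mice, and 1211 in the average. The share of all tested genes called at an adjusted p under 0.05 was 0.00559% in each diet and 0.0224% in the average. The median log2 difference of the 9 genes, NT-/- against NT+/+, was 0.03 in fed mice, 0.03 in fasted mice, and 0.05 on average.

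Decr2 averaged 44.9 ± 2.28 CPM (SD, n = 5) in fasted NT+/+ mice and 50.4 ± 5.23 CPM (SD, n = 5) in fasted NT-/- mice, with overlapping ranges. The log2 difference was 0.17 (SE, 0.08), with an adjusted p of 0.52 and an unadjusted p of 0.0424 by edgeR's quasi-likelihood fit across all genes. Eci2 averaged 97.5 ± 9.75 CPM (SD, n = 5) and 110.1 ± 15.4 CPM (SD, n = 5) in the same groups, a log2 difference of 0.18 (95% interval, -0.03 to 0.38; adjusted p = 0.634 by edgeR). For the electron transfer genes in fasted mice the intervals were -0.09 to 0.24 for Etfa, -0.18 to 0.15 for Etfb, and -0.06 to 0.26 for Etfdh. In fed mice the widest interval was that of Acadsb, -0.06 to 0.46. Over the 9 genes and both diets, this was the only interval that reached the 0.40 estimated for Decr1 after fasting.

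The difference between the fasting effects of the genotypes, tested as an interaction, was called for 0 of the 9 genes (adjusted p = 1.0 for each by edgeR), with 0 at an unadjusted p under 0.05 and 0 by DESeq2. Of all tested genes 0.0% were called, and 485 had an unadjusted p under 0.05. The interaction of Eci2 was 0.16 (95% interval, -0.15 to 0.46). That of Acadsb was -0.31 (95% interval, -0.67 to 0.06). Without the mouse of disagreeing labels it was -0.19, and with that mouse regrouped it was -0.09 (adjusted p = 1 and 0.999 by edgeR). Those of Etfa, Etfb, and Etfdh were 0.03, -0.03, and 0.10, with intervals of -0.22 to 0.27, -0.27 to 0.21, and -0.13 to 0.34.

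The core enzymes that these genes serve moved the same way after fasting. Of 12 core mitochondrial genes, 11 rose in NT+/+ mice (median log2 fold change, 0.94). In NT-/- mice 11 rose and Acad9, which also assembles respiratory complex I, fell (log2 fold change, -0.23; adjusted p = 0.0233). Acaa2, a mitochondrial thiolase, changed by 2.05 (adjusted p = 1.33e-11) and 2.16 (adjusted p = 2.53e-11) in NT+/+ and NT-/- mice. Acadl, the long-chain acyl-CoA dehydrogenase, changed by 2.06 (adjusted p = 5.06e-09) and 2.28 (adjusted p = 4.22e-09). The median change of the core genes was thus above the 0.40 and 0.41 of the 9 auxiliary genes, and the difference between the lists was not tested. For this list and those below, the share of all tested genes called higher was 11.2% in NT+/+ and 12.5% in NT-/- mice.

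Among other genes tied to the flavoprotein, 9 were listed and 8 tested, and Acad10, Acad11, Acad12, and Sardh rose in both genotypes (median, 0.24 in NT+/+ and 0.34 in NT-/- mice). Acad11, an acyl-CoA dehydrogenase family member, changed by 0.66 (adjusted p = 0.000278) and 0.83 (adjusted p = 4.81e-05). Acad10 changed by 0.44 in NT+/+ mice (adjusted p = 0.00285), and Acad12 by 0.47 in NT-/- mice (adjusted p = 0.00231).

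Peroxisomal relatives moved with Eci2 and Decr2. Of 10 genes, 9 rose in each genotype, and the exception was Eci3, the close relative of Eci2 (-0.16, adjusted p = 0.615, and 0.09, adjusted p = 0.791). The medians were 0.79 in NT+/+ and 0.98 in NT-/- mice. Ech1, a dienoyl-CoA isomerase, changed by 1.31 (adjusted p = 1.31e-08) and 1.38 (adjusted p = 1.41e-08). Hsd17b4, the peroxisomal hydratase and dehydrogenase, changed by 1.06 (adjusted p = 3.15e-08) and 1.14 (adjusted p = 2.87e-08).

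Branched-chain amino acid breakdown, the pathway of Acadsb, did not move as a block. Of 20 genes, 3 rose, Aldh6a1 and Bckdha among them, and Hibadh fell in NT+/+ mice. In NT-/- mice the same 3 rose, and Hibadh, Ivd, and Mccc2 fell. Of all tested genes, 10.4% were called lower in NT+/+ and 12.6% in NT-/- mice, so the shares of the list, 3 of 20 higher and 1 or 3 of 20 lower, were near those of all genes. The medians were 0.01 and -0.06. Aldh6a1, which acts late in valine breakdown, changed by 0.60 (adjusted p = 3.64e-06) and 0.61 (adjusted p = 4.84e-06). Hibadh, another enzyme of valine breakdown, changed by -0.42 in NT-/- mice (adjusted p = 0.000193 by edgeR). In the average of both fasting effects, 6 of the 20 genes were called higher and 6 lower. Over all tested genes, 19.2% were called higher in that average, and 3607 of 17875 were called lower. No gene of the core, flavoprotein, peroxisomal, or branched-chain lists was called in a genotype comparison or in the interaction by edgeR. DESeq2 called 1 core gene and 1 branched-chain gene between fasted genotypes, and 1 flavoprotein gene and 1 branched-chain gene between genotypes on average. Without replicate 2 of the fasted NT-/- mice, edgeR called 1 branched-chain gene in that average.

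The 9 genes varied together to different degrees. Over the 36 pairs of genes and all 19 mice, the median Pearson r of log2 CPM was 0.70 (range, 0.03 to 0.98). After each group's mean was taken off, the median was 0.50 (range, -0.21 to 0.90). Etfa had r of 0.96 to both Etfb and Etfdh over the mice, and of 0.84 and 0.85 within groups. Its r to Echs1 was 0.20 and to Acadsb 0.38. Among 9949 other well-expressed genes, those most like the mean of the 9 over the 19 mice included Pllp (r = 0.954), Acadvl (r = 0.953), Eif4b (r = 0.947), and Eef2 (r = 0.943). Within groups they were Glo1 (r = 0.929), Pdcl (r = 0.907), Acadvl (r = 0.897), Pdha1 (r = 0.88), and Acat1 (r = 0.867). These correlations describe libraries that share diet groups, depth, and cell makeup, and carry no test.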

How the data were processed

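The authors isolated crypts from the small intestine, leaving out its distal part, depleted ribosomal RNA, sequenced the libraries as single-end reads of 100 bases, trimmed them with Trimmomatic (version 0.39, per the submitters' processing notes), and quantified Ensembl GRCm38 transcripts with RSEM (version and strand setting not given in the sources used here). They deposited RSEM's expected counts, which are estimated counts and not normalized, and RSEM's TPM values per gene. The deposited effective lengths, another unit, served only to recompute TPM, and the deposited FPKM values were not used. Expected counts were rounded to whole numbers. Reads that fit several genes were divided by RSEM's model, which limits close relatives.

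Groups came from the sample titles. Genes that passed filterByExpr were normalized by TMM and fitted in edgeR (version 4.0.16; R version 4.3.3) with 1 coefficient for each of the 4 groups of 19 mice, no covariate, and 15 residual degrees of freedom. The quasi-likelihood test with Benjamini-Hochberg adjustment over all 17875 tested genes was called at an adjusted p under 0.05. Levels in CPM use TMM library sizes. SEs were derived from the log2 fold change and its F statistic, and 95% intervals use the t distribution with edgeR's total degrees of freedom. Log2 CPM for correlations used a prior count of 2 and genes of at least 3 in average log2 CPM. The procedure was tested on counts drawn with known changes. The p-values set each difference against the spread between these mice, which were taken as independent, with no block for the replicate numbers. Per mouse, total counts ranged from 9059457 to 35068711, and each of the 9 genes had at least 159 counts in each mouse.

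The 9 genes, the gene lists, and the cell type markers were chosen with earlier results of these data known. The text names the 9 genes, the 2 members of each other list with the smallest p among those called in a comparison, the 5 genes most like the 9, and Nts, and it adds Acad9, Eci3, and called list or marker genes, which were named after their values were seen. Of the genes that meet this rule, 1 gene is left out of the text. Promoter windows are from RefSeq (GRCm38.p6), and positions of genes from GENCODE (GRCm38).

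The labels do not say what the shared replicate numbers mean. Across genes, the deviations from the group mean correlated above 0.1 between mice of the same number in 5 of 5 pairs between fed and fasted NT+/+ mice (r, 0.165 to 0.499) and in 5 of 5 pairs between fasted genotypes (r, 0.124 to 0.453), but in 2 of 4 pairs for the fasting effect in NT-/- mice and 2 of 4 between fed genotypes. The number in the file names, which differs for 2 mice, gave 5 of 5, 5 of 5, 4 of 4, and 4 of 4. Alternatives were each number as a block, DESeq2 (version 1.42.0), other normalizations and filters, the mouse with disagreeing labels regrouped, a term for sex, the compared groups alone, and each mouse left out in turn. The fit with a term for sex left out replicate 5 of the fasted NT-/- mice, which has no sex label.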

Additional observations from a re-analysis of the deposited data

Results flagged for a closer look

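Of 36 combinations of gene and group checked in CPM for a value far from the others, 2 held one, and chance gives about 1 in 20. Acadsb, the branched-chain acyl-CoA dehydrogenase, reached 29.9 CPM in replicate 5 of the fasted NT+/+ mice, where the other 4 mice had 19.5 to 22.4 CPM. This is the mouse whose title and genotype label disagree. Echs1, the hydratase, had 75.3 CPM in replicate 3 of the fed NT-/- mice, where the other 3 mice had 79.8 to 80.6 CPM. Without that mouse the fasting effect on Echs1 in NT-/- mice was -0.03 on the log2 scale (adjusted p = 0.826 by edgeR).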

How the results depend on the processing

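Over up to 29 alternatives, the number of the 9 genes called ranged from 6 to 8 (6 as reported) for fasting in NT+/+ mice, from 6 to 7 (6) in NT-/- mice, and from 6 to 7 (7) in the average, and it was 0 for each genotype comparison and the interaction under every alternative run. Of 544 alternative values for the 19 called changes, 543 kept their direction and call, and Eci1 in the averaged fasting effect lost its call without a filter on low counts (0.16; adjusted p = 0.0831 by edgeR). With upper quartile normalization Eci1 was called in NT+/+ mice (0.19; adjusted p = 0.039 by edgeR). The replicate block changed no call among the 9 genes except those given for Eci1 and Acadsb. Values with sex as a covariate also lack the mouse with no sex label. Signs turned in 117 values, all of changes that were not called, of -0.06 to 0.12 on the log2 scale, and the cause was not tested. Apart from single mice left out, these were Acadsb in fasted NT-/- mice (0.05 against fed, 0.12 against NT+/+) and values of Echs1 and Etfb (-0.01, 0, and 0.01) with the mouse of disagreeing labels regrouped; Echs1 and Etfb (0 and 0.01) with DESeq2 or relative log expression; Decr1, Echs1, Eci1, and Etfdh (-0.01, 0, and 0.01) with no filter; Eci1 (-0.01) with upper quartile; Eci1 and Etfdh (0) with the compared groups alone; Decr1, Echs1, Eci1, Eci2, and Etfb (-0.03, -0.01, and 0) or Decr1, Echs1, Eci1, and Etfdh (-0.01, 0, and 0.02) with a replicate block; and Decr1, Echs1, Eci1, and Etfa (-0.06, -0.02, and -0.01) with sex as a covariate. With each mouse left out in turn, the ranges of the values that turned were for fasting in NT-/- mice, Acadsb -0.11 to 0.04, Echs1 -0.06 to 0.01; between fasted genotypes, Acadsb -0.15 to 0.02, Decr1 -0.03 to 0.09, Echs1 -0.03 to 0.04, Eci1 -0.05 to 0.05, Etfb -0.08 to 0.03; for the interaction, Decr1 -0.05 to 0.08, Echs1 -0.07 to 0, Eci1 -0.08 to 0.02, Etfa -0.01 to 0.08, Etfb -0.09 to 0.02; between genotypes on average, Decr1 -0.01 to 0.05, Eci1 -0.01 to 0.04, Etfb -0.03 to 0.02; between fed genotypes, Decr1 -0.03 to 0.08, Eci1 -0.01 to 0.06, Eci2 -0.03 to 0.08, Etfa -0.01 to 0.08, Etfb -0.02 to 0.06, Etfdh -0.06 to 0.05; for the averaged fasting effect, Echs1 -0.02 to 0.03; for fasting in NT+/+ mice, Echs1 -0.02 to 0.07. The number of branched-chain genes called reached 7 (4 as reported) in NT+/+ mice and 4 to 11 (6) in NT-/- mice, and the number of all genes called between genotypes ranged from 0 to 3 (1) in fed mice, from 0 to 98 (1) in fasted mice, and from 1 to 53 (4) on average.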
